A study of Mus musculus with 4 samples.

Results

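Hif1a and 9 genes of glucose uptake, glycolysis and the hypoxia response were followed across the cells, mostly immune, recovered from healing mouse skin. The 10 genes, chosen by symbol, were Hif1a, Slc2a1, Slc2a3, Pfkp, Aldoa, Pgk1, Pgam1, Pkm, Ldha and Bnip3. The choice was made with earlier results of these data known. Counts of members set beside shares of all genes therefore describe this list and do not test it. All 10 were among the 21739 gene symbols of the 4 deposited count tables. Each table was a 10x 3′ single-cell library from the periwound skin of 1 C57/BL6j mouse, 6 weeks old, taken 7 days after an 8 mm full-thickness wound. The 2 Control mice received PBS and the 2 hucMSC-Exo mice received 100 µg of exosomes from human umbilical cord mesenchymal stem cells, injected subcutaneously at 4 sites around the wound every 48 hours. Anaesthesia, depilation and wounding were common to both groups.

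HIF-1α, the product of Hif1a, is the oxygen-regulated subunit of the transcription factor HIF-1. With oxygen present it is hydroxylated by prolyl hydroxylases and degraded after binding VHL, so that it is controlled mainly at the protein level, which these RNA counts do not measure. HIF-1 binds the core letters ACGTG or GCGTG and raises glucose transporters, nearly every enzyme of glycolysis and lactate dehydrogenase. In immune cells of inflamed skin the same genes also follow activation and growth signals.

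The members lie on 8 chromosomes of the mm10 build (GRCm38, GENCODE annotation), and all are protein coding. Hif1a is at chr12:73901375-73947530 on the plus strand. Of the glucose transporters, Slc2a1, encoding the widely used GLUT1, is at chr4:119108711-119137983 (plus) and Slc2a3, encoding the high-affinity GLUT3, at chr6:122727809-122801640 (minus). Pfkp, the platelet type of phosphofructokinase and so the committing step of glycolysis, is at chr13:6579768-6648777 (minus), and Aldoa, the aldolase that splits fructose 1,6-bisphosphate, at chr7:126795234-126800751 (minus). Pgk1 (chrX:106187100-106203699, plus) and Pkm (chr9:59656368-59679375, plus) encode the kinases that make ATP in the pathway, and Pgam1 (chr19:41911923-41918660, plus) encodes the phosphoglycerate mutase between them. Ldha, at chr7:46841475-46855627 (plus), encodes the lactate dehydrogenase subunit that turns pyruvate into lactate. Bnip3, at chr7:138890836-138909519 (minus), encodes a mitochondrial protein of mitophagy and is no glycolysis gene. No annotated transcript of a gene with another name shared 95% identity over 90 or more of the last 300 bases with any member. Another annotated gene also named Aldoa, at chr7:126800790-126809108 (minus), was left out of that search. Named pseudogenes were annotated for Aldoa (2), Pgk1 (3), Pgam1 (2) and Ldha (2). Whether their copies share reads with these members was not tested. Counts from 3′ ends do not tell the M1 and M2 forms of Pkm apart.

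The 250 bases upstream of the start site were read from RefSeq (GRCm38.p6) and searched on both strands for ACGTG and GCGTG, the letters of the HIF core motif. These starts can differ from the GENCODE gene starts given above. The Hif1a and Ldha stretches printed below lie inside the gene spans listed for them. The members had 13 promoter entries, some with alternative starts, and Slc2a3 had none. Of these, 11 entries, covering all 9 members with an entry, held at least 1 match, against 38.6% of 32851 mouse promoter entries of the same length. Among the 11 entries, 2 Aldoa entries overlap and hold the same match. The share over all entries was not matched for base composition. ACGTG occurred in 16.6% and GCGTG in 28.2% of all entries, and 6.58% held 3 or more matches. The first Ldha entry and the Bnip3 entry held 5 matches each, Hif1a, Pfkp and Pgam1 held 3, and Slc2a1 and Pgk1 held 2. The palindrome CACGTG reads as ACGTG on both strands and counted as 2 overlapping matches. A match is a string of letters and was not tested for binding. Hif1a and 3 genes that differed between cell classes are printed 5′ to 3′ on the gene's strand, with matches in capitals.
Hif1a, chr12:73907617-73907866, plus strand: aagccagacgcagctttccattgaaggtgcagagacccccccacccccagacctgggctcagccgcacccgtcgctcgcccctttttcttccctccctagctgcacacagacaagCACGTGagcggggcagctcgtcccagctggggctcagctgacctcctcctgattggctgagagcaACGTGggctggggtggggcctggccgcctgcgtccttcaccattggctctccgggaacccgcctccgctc
Pgk1, chrX:106186850-106187099, plus strand: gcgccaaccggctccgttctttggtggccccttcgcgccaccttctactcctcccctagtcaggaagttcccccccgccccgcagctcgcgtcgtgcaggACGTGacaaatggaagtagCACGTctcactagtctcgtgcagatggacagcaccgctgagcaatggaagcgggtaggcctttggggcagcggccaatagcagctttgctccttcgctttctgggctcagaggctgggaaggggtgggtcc
Pgam1, chr19:41911621-41911870, plus strand: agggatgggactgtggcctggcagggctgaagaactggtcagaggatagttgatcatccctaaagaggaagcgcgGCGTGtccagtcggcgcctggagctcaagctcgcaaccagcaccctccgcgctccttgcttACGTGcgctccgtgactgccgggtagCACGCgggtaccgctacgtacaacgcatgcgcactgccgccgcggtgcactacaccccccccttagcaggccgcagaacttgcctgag
Ldha, chr7:46845554-46845803, plus strand: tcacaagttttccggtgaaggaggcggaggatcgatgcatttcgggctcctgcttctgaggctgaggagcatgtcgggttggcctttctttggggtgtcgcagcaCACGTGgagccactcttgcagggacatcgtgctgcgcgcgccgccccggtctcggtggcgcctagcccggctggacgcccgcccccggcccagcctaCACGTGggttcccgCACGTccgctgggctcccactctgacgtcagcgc

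The libraries held 1098 (Control 1), 2422 (Control 2), 1539 (hucMSC-Exo 1) and 2119 (hucMSC-Exo 2) cell barcodes, and between 6657095 and 16950639 unique molecular identifiers (UMIs). The tables used here hold fewer cells per mouse than the study describes, and the sources used here do not give the reason. Barcodes shared by 2 libraries numbered 0 to 2 a pair. Kept cells had 200 to 3000 genes and at most 10% mitochondrial UMIs, which left 952, 2074, 1416 and 2001 cells with median depths of 3747 to 4392.5 UMIs. Cells were placed in classes by marker genes, and 11 classes reached the minimum of 10 cells in every library. Between 81.5% and 87.7% of deposited cells had a UMI of Ptprc, the pan-leukocyte gene, and the tissue field of the labels names gut sections, while the cell type field and protocol name skin. The groups come from the titles, while the deposited tables carry letters that group the libraries otherwise, with 1 Control and 1 hucMSC-Exo library under each. Each library is therefore named as labelled, and all 4 values are given where a result turns on them.

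Classes were checked against their markers, which were also used to form them. Il17a was detected in 77.0% of 570 IL-17 γδ T cells and 2.25% of other cells, Xcl1 in 90.6% of 976 dendritic epidermal T cells (DETCs) and 6.64% of others, and S100a8 in 99.7% of 898 neutrophils and 17.2% of others. C1qa was detected in 96.1% of 777 C1q-high macrophages against 4.39%, Acp5 in 60.6% of 180 osteoclast-like macrophages against 9.61%, and Il5 in 46.2% of 234 group 2 innate lymphoid cells (ILC2s) against 0.258%. The class gated as plasmacytoid dendritic cells was less sharply marked, since Bst2 was found in 40.4% of other cells, so its place in the order of levels is that of a loosely marked class. It entered no contrast of named classes, but it is among the 11 classes of the interaction test and of the correlations. Levels are UMIs of a gene per 1000000 UMIs (CPM), summed over the cells of a class in 1 library. Values follow the order Control 1, Control 2, hucMSC-Exo 1, hucMSC-Exo 2. A sum cannot tell fewer transcripts per cell from fewer expressing cells.

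Hif1a RNA was present in all 11 classes and its mean spanned 5.06-fold. ILC2s, neutrophils, monocytes and IL-17 γδ T cells stood at the high end, and dendritic cells, DETCs and NK cells at the low end. In ILC2s Hif1a was at 309, 584, 596 and 771 CPM, and in neutrophils at 181, 647, 642 and 619 CPM (522 ± 228, SD, n = 4). Monocytes held 206, 687, 542 and 607 CPM and IL-17 γδ T cells 246, 646, 542 and 488 CPM. These classes overlapped and their order was not resolved beyond the spread of libraries. C1q-high macrophages, with 187, 466, 338 and 448 CPM, exceeded the class gated as plasmacytoid dendritic cells by more than the larger SD of the pair, and so did that class NK cells (101, 170, 147 and 139 CPM). These were the only neighbours in the order so separated. DETCs held 77.3, 125, 146 and 124 CPM (118 ± 29.1, SD, n = 4) and dendritic cells 39, 117, 146 and 145 CPM. αβ T cells, at 269, 608, 548 and 430 CPM, and osteoclast-like macrophages, at 231, 387, 301 and 690 CPM, lay between the high classes and C1q-high macrophages. A Hif1a UMI was found in 86.8% of ILC2s, 75.8% of IL-17 γδ T cells and 29.4% of DETCs.

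The library labelled Control 1 was the lowest of the 4 for Hif1a in 11 of 11 classes. These classes share the same 4 libraries, and the share of all genes with Control 1 lowest was not counted. Over all kept cells Hif1a was at 166, 438, 370 and 449 CPM. Control 1 was also lowest in 9 classes for Aldoa, in 8 for Ldha and in 7 each for Slc2a1, Pgk1 and Pkm, but in 3 for Bnip3 and 4 for Pfkp. Every value that averages the Control libraries contains this low library.

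The class means of Slc2a1 spanned 9.83-fold. Slc2a1 was highest in neutrophils, at 117, 197, 214 and 241 CPM, and was low in DETCs, at 22.5, 40.3, 29.7 and 30.7 CPM, and NK cells, at 30.4, 25.6, 0 and 22.2 CPM. Monocytes were uneven, at 96.1, 166, 88.7 and 272 CPM, and overlapped neutrophils. C1q-high macrophages sat closer together, at 72.9, 108, 82.1 and 88.4 CPM.

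Among the 11 classes Slc2a3 was highest in neutrophils, beyond the spread of libraries. It was at 324, 369, 385 and 400 CPM in neutrophils (370 ± 32.9, SD, n = 4), from 25, 260, 54 and 456 UMIs, with Control 1 near the other libraries. αβ T cells were the next of these classes, at 35.5, 58.2, 64.8 and 57.5 CPM, well below every neutrophil value. Basophils were not among the 11 classes, since Control 1 held 2 of them. A Slc2a3 UMI was found in 26% of 100 basophils and 18.3% of αβ T cells, so the rank of basophils is not given. C1q-high macrophages gave 1, 2, 1 and 0 UMIs and osteoclast-like macrophages 0, 1, 1 and 0, all under the floor of 3 UMIs per library set for detection. A Slc2a3 UMI was found in 37.1% of neutrophils and 0.5% of C1q-high macrophages, although neutrophils were the shallower class, with median depths of 1868 to 2185 against 6673 to 8044 UMIs. Monocytes, whose Hif1a overlapped that of neutrophils, held 0, 35.2, 4.03 and 13 CPM of Slc2a3.

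**Figure D1:**
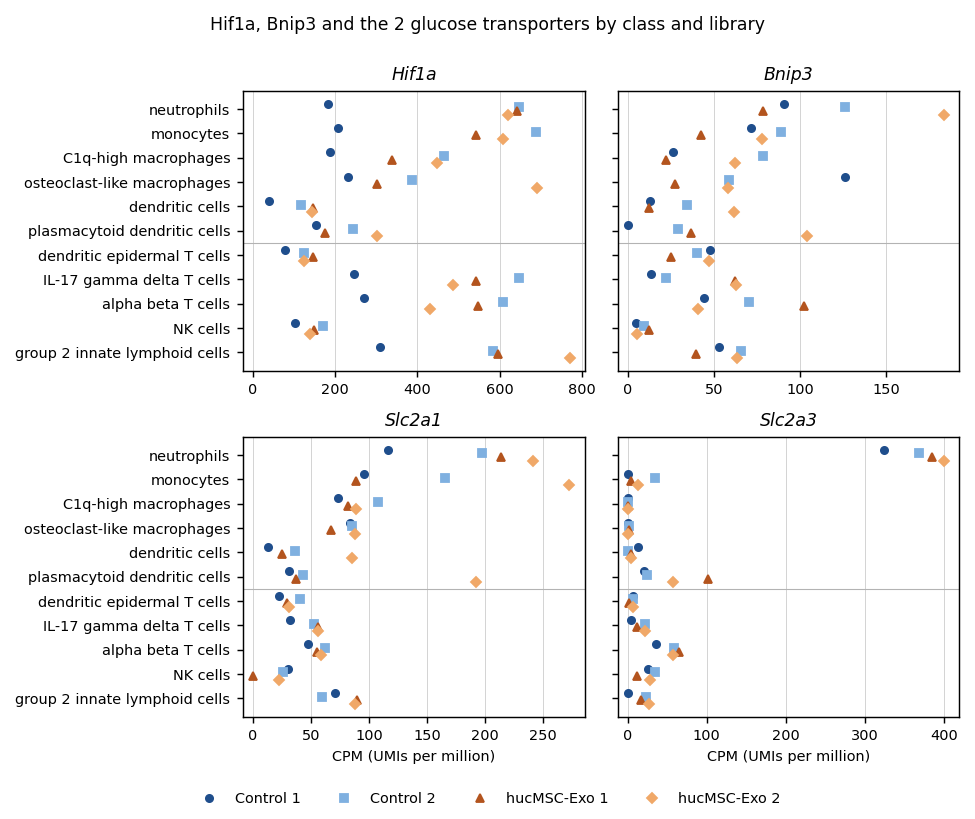
CPM of Hif1a, Bnip3, Slc2a1 and Slc2a3 (horizontal axes) in 11 cell classes (vertical axis), with 1 point per library coloured by library. Control 1 has the lowest Hif1a CPM in 11 of 11 classes, and the neutrophil Slc2a3 points, from 324 to 400 CPM, lie to the right of those of every other class.

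The enzymes of glycolysis varied less, with the highest class mean 3.08 to 4.80 times the lowest. Pfkp was at 146, 214, 199 and 240 CPM in IL-17 γδ T cells and 175, 187, 200 and 232 CPM in dendritic cells, where Hif1a was low. In DETCs it was at 73.7, 63, 82.6 and 76.8 CPM. Pfkp thus stood at like levels in a class high and a class low for Hif1a. Aldoa reached 707, 1109, 940 and 1034 CPM in ILC2s and 861, 739, 689 and 760 CPM in osteoclast-like macrophages. NK cells were lowest for Aldoa, at 238, 394, 295 and 305 CPM.

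Pgk1 was at 345, 598, 481 and 529 CPM in ILC2s and 288, 676, 475 and 447 CPM in monocytes, against 140, 155, 173 and 125 CPM in DETCs. Pgam1 was at 431, 516, 317 and 549 CPM in osteoclast-like macrophages and 109, 110, 117 and 90.8 CPM in DETCs. Pkm was at 700, 759, 849 and 968 CPM in neutrophils and 238, 283, 285 and 248 CPM in DETCs. For these 3 enzymes no DETC value reached any value of the high class.

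Ldha was highest in ILC2s, at 654, 1271, 1225 and 1472 CPM (1155 ± 351, SD, n = 4), above αβ T cells (488, 718, 950 and 641 CPM) by more than the larger SD. DETCs held 245, 254, 246 and 218 CPM of Ldha, all below the lowest ILC2 value. Bnip3 was highest in neutrophils, at 90.7, 126, 78.5 and 183 CPM, and lowest in NK cells, with 6 UMIs over all of them. αβ T cells, at 44.4, 70.2, 102 and 40.8 CPM, overlapped monocytes, at 71.4, 89, 42.3 and 77.9 CPM.

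**Figure D2:**
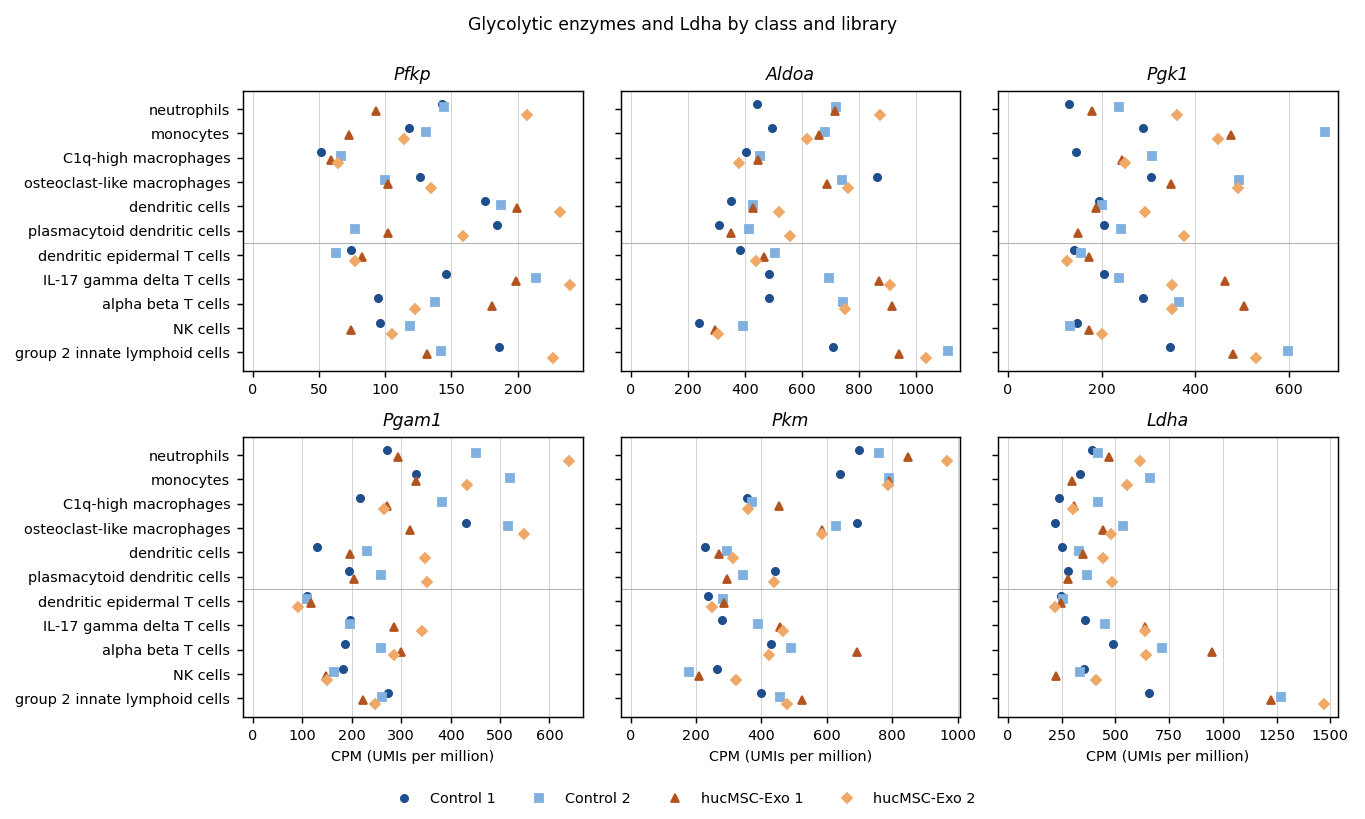
CPM of Pfkp, Aldoa, Pgk1, Pgam1, Pkm and Ldha (horizontal axes) in 11 cell classes (vertical axis), with 1 point per library coloured by library. DETC points lie at low CPM and close together for Pgk1, Pgam1, Pkm and Ldha, and ILC2 points reach 1472 CPM for Ldha.

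The first comparison set the γδ T-cell populations of skin side by side. DETCs are the resident γδ T cells of mouse epidermis, and IL-17 γδ T cells are a dermal population that makes IL-17A. Hif1a, Slc2a3, Pfkp, Aldoa, Pgk1, Pgam1, Pkm and Ldha, 8 of the 10 members, were higher in IL-17 γδ T cells at an adjusted p under 0.05, whereas 17.4% of the 7724 genes tested were higher and 21.6% lower. In every comparison of classes the test was edgeR's quasi-likelihood test on class sums with library as a block and Benjamini-Hochberg adjustment over all genes tested. The median log2 difference was 1.17 over members and -0.09 over all genes.

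Hif1a differed most, by 2.09 on the log2 scale (SE 0.21, adjusted p = 9.49e-12), and its lowest IL-17 γδ T-cell value, 246 CPM, lay above the highest DETC value, 146 CPM. Pfkp differed by 1.56 (SE 0.20, adjusted p = 9.40e-09), Pgam1 by 1.35 (SE 0.23), Ldha by 1.18 (SE 0.21) and Pgk1 by 1.15 (SE 0.23). The groups did not overlap for any of these 5 genes. In IL-17 γδ T cells Pgk1 was at 205, 236, 463 and 349 CPM and Pgam1 at 196, 196, 286 and 343 CPM, against at most 173 and 117 CPM in DETCs. Aldoa, higher by 0.82 (SE 0.19), and Pkm, higher by 0.71 (SE 0.18), were higher in IL-17 γδ T cells in 4 of 4 libraries, with overlap between libraries. Slc2a3 differed by 1.60 (SE 0.47, adjusted p = 0.00485) at low levels of 4.56, 22.2, 11.5 and 21.5 against 6.29, 7.23, 2.12 and 6.4 CPM, and lost its call without hucMSC-Exo 2 (adjusted p = 0.0883). Slc2a1 did not pass (0.76, adjusted p = 0.0518). It passed in 4 of 13 alternative settings (lowest adjusted p = 0.0131), among them without hucMSC-Exo 2 (0.78, adjusted p = 0.0456). Bnip3 did not pass (0.21, adjusted p = 0.697).

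The lists of other pathway genes held calls in both directions. Of 16 other glycolysis genes tested, Pfkl, Gapdh, Eno1 and the monocarboxylate transporters Slc16a1 and Slc16a3 were higher and Hk2, Pfkfb4 and Mpc2 lower, with a median log2 difference of -0.07. Of 10 oxygen-sensing genes 3 were higher and 2 lower, and of 17 other HIF-1 target genes 6 were higher and 4 lower. Ero1l, the endoplasmic reticulum oxidoreductase, was at 466 ± 155 CPM in IL-17 γδ T cells and 46.8 ± 8.65 CPM in DETCs (SD, n = 4), a log2 difference of 3.37. Mxi1, a MYC antagonist, was higher by 3.98, whereas P4ha2, a collagen prolyl hydroxylase subunit, was at 3.00 ± 4.68 against 60.2 ± 18.6 CPM and Pfkfb4 at 0.179 ± 0.358 against 6.14 ± 2.49 CPM. Median depth was 3804 to 5176 UMIs in IL-17 γδ T cells and 3191 to 3855.5 in DETCs, and the part of depth in the result was not tested.

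**Figure D3:**
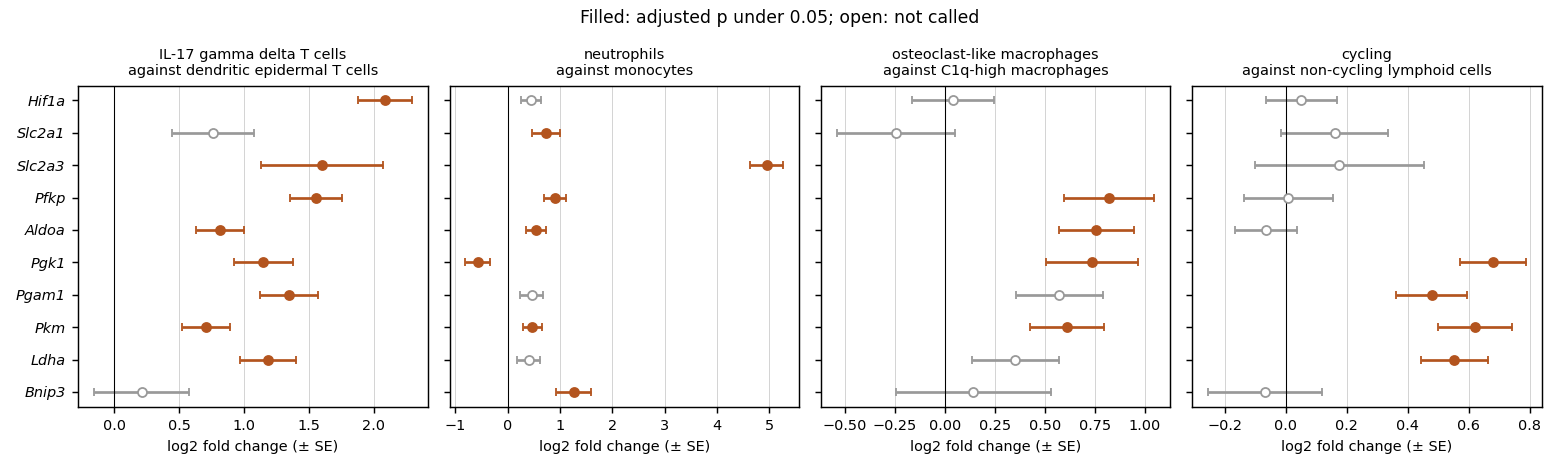
Log2 differences of the members (horizontal axis, points with SE bars) in 4 comparisons: IL-17 γδ T cells against DETCs, neutrophils against monocytes, osteoclast-like against C1q-high macrophages, and cycling against non-cycling lymphoid cells. Filled points passed an adjusted p of 0.05, and 8, 7, 4 and 4 members did so, with Hif1a filled in the first comparison alone. Slc2a3 is not drawn for osteoclast-like against C1q-high macrophages.

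Neutrophils rely mainly on glycolysis, and monocytes precede tissue macrophages. Between them 6 members were higher in neutrophils and 1 lower, where 22.7% and 23.9% of 7724 genes were. Slc2a3 differed by 4.96 on the log2 scale (SE 0.31, adjusted p = 4.99e-18), Bnip3 by 1.26 (SE 0.34) and Pfkp by 0.90 (SE 0.21), each in 4 of 4 libraries. Slc2a1 (0.73, adjusted p = 0.0192), Aldoa (0.53, adjusted p = 0.0170) and Pkm (0.47, adjusted p = 0.0295) were higher in 3 of 4 libraries. Pgk1 ran the other way, at 130, 237, 178 and 360 CPM in neutrophils, below monocytes in 4 of 4 libraries (log2 difference -0.58, adjusted p = 0.0387). Hif1a did not pass, at 522 ± 228 against 511 ± 212 CPM (SD, n = 4), a log2 difference of 0.44 (adjusted p = 0.0627).

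The smaller differences depended on scaling and on single libraries. With scaling by library size alone the median of all genes moved from -0.11 to -0.54, calls that were higher fell from 48.8% to 29.0% of all calls, and only Slc2a3, Pfkp and Bnip3 stayed higher, with Pgk1 still lower. Slc2a3 alone kept its call with each library left out in turn. Aldoa and Pkm lost theirs without Control 2 or hucMSC-Exo 2, Slc2a1 without Control 2 or hucMSC-Exo 1, Pfkp and Bnip3 without hucMSC-Exo 2 (adjusted p = 0.0863 and 0.0811), and Pgk1 without Control 1, Control 2 or hucMSC-Exo 1. Hif1a passed in 3 of 13 alternative settings (lowest adjusted p = 0.0371), among them without Control 1 (0.48, adjusted p = 0.0467). Pgam1 passed in 1 setting, without Control 1, at 0.58 (adjusted p = 0.0315). With DESeq2 size factors 7 members were higher and 1 lower. Among other glycolysis genes 6 of 16 were higher (Hk3, Pfkl, Pfkfb3, Pfkfb4, Eno1 and Slc16a3) and Gpi1 was lower, with a median of 0.58. Oxygen-sensing genes gave 2 higher of 10, among them Egln3, a prolyl hydroxylase and itself a HIF target, which differed by 2.47. Other HIF-1 target genes gave 7 higher and 5 lower of 17. Ankrd37 was higher by 3.11 and Pfkfb3 by 2.00, while Arg1, the arginase of wound monocytes and macrophages, was at 2.14 ± 3.40 CPM in neutrophils and 174 ± 112 CPM in monocytes (SD, n = 4). Median depth was 1868 to 2185 UMIs in neutrophils and 6121 to 7325.5 in monocytes, and its part in the result was not tested.

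Osteoclast-like macrophages, cells with markers such as Ctsk and Acp5 and 12, 80, 62 and 26 cells a library, were set against C1q-high macrophages. Pfkp, Aldoa, Pgk1 and Pkm, 4 of 10 members, were higher and none was lower in edgeR's test, where 1.57% of 7724 genes were higher and 4.04% lower. Aldoa was at 861, 739, 689 and 760 CPM against 404, 452, 445 and 379 CPM, a log2 difference of 0.76 (SE 0.19, adjusted p = 0.00784). Pfkp was at 126, 100, 102 and 134 CPM against 51.3, 66.5, 58.8 and 64.1 CPM, a difference of 0.82 (SE 0.23, adjusted p = 0.0174). Pkm, at 693, 628, 585 and 584 against 356, 371, 455 and 361 CPM, differed by 0.61 (adjusted p = 0.0381), and Pgk1 by 0.73 (adjusted p = 0.0448). The groups did not overlap for Aldoa, Pfkp and Pkm. Pgam1 was higher in 4 of 4 libraries but did not pass (0.57, adjusted p = 0.123). Hif1a did not pass, with a difference of 0.04 (SE 0.20).

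These calls rested on all 4 libraries. With any 1 library left out, at most 1 of the 4 remained (Aldoa without hucMSC-Exo 1), although each of the 4 genes kept its direction. None of 16 glycolysis, 10 oxygen-sensing or 17 target genes of the lists passed in edgeR's test. With all deposited cells, which added cells past the limits on genes and mitochondrial share and gave 26, 185, 104 and 27 osteoclast-like cells, Hif1a was at 88.7, 136, 132 and 351 CPM and its difference turned to -1.29 (adjusted p = 1.28e-05). Aldoa and Pgk1 kept their calls there, and 3069 genes were called against 433. The Hif1a level of this class moved with which cells were kept.

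Against monocytes, 8 of 10 members in osteoclast-like macrophages did not pass. Slc2a1, at 84, 85.3, 66.9 and 87.7 CPM, was lower by edgeR's test (log2 difference -1.03, adjusted p = 0.0151), and Slc2a3, with 0, 1, 1 and 0 UMIs against 0, 34, 2 and 15 in monocytes, was the other of 2 members called lower, where 5.99% of 7724 genes were lower and 5.28% higher. Both calls were lost without Control 2 (adjusted p = 0.126 and 0.266), and that of Slc2a1 also without hucMSC-Exo 2 (adjusted p = 0.0958). Of the lists, Slc16a3, the lactate exporter MCT4 (-1.48), Egln1, the main prolyl hydroxylase (-1.23), and Ero1l (-1.15) were lower and Ndrg1 (0.77) higher, from 16, 10 and 17 genes tested. Hif1a did not pass (-0.47, adjusted p = 0.137) but was called lower in 3 of 12 alternative settings. Among them were the fit without Control 1 (-0.66, adjusted p = 0.0257) and that with all deposited cells (-1.88).

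Across 5 myeloid and 5 lymphoid classes weighted equally, 7 members were higher in myeloid cells and 1 lower, where 31.3% and 38.4% of 7724 genes were. Slc2a1 differed by 1.42 (SE 0.15), Pgam1 by 1.06 (SE 0.10), Bnip3 by 1.04 (SE 0.22) and Pkm by 0.80 (SE 0.09), and these 4 also passed with library-size scaling alone. Hif1a (0.42), Pgk1 (0.40) and Aldoa (0.20) passed in the fit, but their CPM means were higher in myeloid cells in only 2, 2 and 1 of 4 libraries, and with library-size scaling Hif1a was at 0.16 and Aldoa at -0.06. Aldoa lost its call without Control 1 (adjusted p = 0.0954) or Control 2 (adjusted p = 0.0518) and Pgk1 without Control 2 (adjusted p = 0.0597). Library-size scaling moved the median of all genes from -0.10 to -0.37. For Slc2a3 the fit, which averages logs, gave -1.13, while the mean of class CPM was higher in myeloid (78 ± 7.1) than in lymphoid classes (23.3 ± 6.86, SD, n = 4) in 4 of 4 libraries, with neutrophils the one myeloid class at a high level. With a minimum of 20 cells the fitted difference was 0.28. Pfkp (0.13) and Ldha (-0.12) did not pass. Ldha was nonetheless lower in myeloid classes in 4 of 4 libraries by CPM (402 ± 90.8 against 589 ± 117, SD, n = 4), and with library-size scaling it was called lower (-0.38, adjusted p = 0.000344).

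Other glycolysis genes gave 5 higher and 1 lower of 16, oxygen-sensing genes 3 and 3 of 10, and other HIF-1 targets 10 and 2 of 17. Hmox1, heme oxygenase of iron-handling macrophages, differed by 7.27 and Pfkfb4 by 4.31, and Arg1 was at 148 ± 110 against 2.54 ± 0.645 CPM. Arnt2, a partner subunit of HIF-1α, was at 0.487 ± 0.674 CPM in myeloid and 30.7 ± 5.40 CPM in lymphoid classes (SD, n = 4).

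Cycling lymphoid cells, called by cell-cycle markers, were higher for Pgk1, Pkm, Ldha and Pgam1, which act after the splitting of fructose 1,6-bisphosphate, 4 of 10 members, where 9.96% of 7623 genes were higher and 8.78% lower. Pgk1 was at 290, 411, 501 and 425 CPM in cycling and 167, 258, 328 and 285 CPM in other lymphoid cells of the same libraries (log2 difference 0.68, SE 0.11, adjusted p = 0.000141). Ldha was at 518, 777, 762 and 798 against 301, 509, 625 and 575 CPM (0.55, adjusted p = 0.00125), and Pkm at 490, 464, 639 and 512 against 252, 365, 399 and 379 CPM (0.62, adjusted p = 0.00103). Pgam1 differed by 0.48 (adjusted p = 0.0065). All 4 were higher in cycling cells in 4 of 4 libraries, and Pgam1 lost its call without hucMSC-Exo 1 (adjusted p = 0.065).

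Hif1a did not pass, with a difference of 0.05 (SE 0.12, adjusted p = 0.826) and levels of 350 ± 135 against 343 ± 136 CPM (SD, n = 4). Of 14 other glycolysis genes tested 4 were higher, namely Tpi1, Gapdh, Eno1 and Slc16a3, and Hk2 was lower, and Gapdh, the dehydrogenase upstream of Pgk1, differed by 0.58. Oxygen-sensing genes gave 0 higher and 1 lower of 10, namely Arnt2 at -0.73, and other targets 2 higher and 1 lower of 14, with Ddit4 at 0.57 and P4ha2 at -1.76. Without the library block 0 members passed, with log2 differences of 0.67 for Pgk1 and 0.61 for Pkm. Cycling cells were deeper (6713 to 8244 against 3407.5 to 4372 median UMIs) and drawn from different lymphoid classes. They made up 17.1% of ILC2s and 4.82% of DETCs. Of the 11 classes, ILC2s were highest and DETCs lowest for Pgk1 and Ldha, while ILC2s were not highest for Pgam1 or Pkm. The part of depth and of class mix in this pooled result was not tested. Within IL-17 γδ T cells alone, an alternative added after seeing the data, Pgk1 passed (0.60, adjusted p = 0.00966), while Pkm (0.41, adjusted p = 0.0900), Ldha (0.38, adjusted p = 0.0858) and Pgam1 (-0.05) did not. That fit used 3 libraries, since Control 1 held 5 cycling IL-17 γδ T cells, under the minimum of 10.

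Interferon-responding neutrophils, cells marked by interferon-induced genes, were compared with other neutrophils in the 3 libraries with enough cells. None of the 10 members passed in edgeR's test, with 2.87% of 1916 genes called, 55 by edgeR and 30 by DESeq2, and 158 at an unadjusted p under 0.05. Slc2a3 was at 447, 435 and 515 CPM in interferon-responding and 274, 355 and 375 CPM in other neutrophils of Control 1, Control 2 and hucMSC-Exo 2 (log2 difference 0.40, adjusted p = 0.741).

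Over 44 sums (11 classes in 4 libraries) all 45 pairs of members had a positive Pearson correlation of log2 CPM, with a median of 0.59. Over all pairs of the 2702 genes other than Hif1a with a mean of at least 50 CPM, 53.9% were positive and the median was 0.04. Of the members' pairs, 35 were positive within each of the 4 libraries, and the share of all gene pairs that were so was not counted. Sums of 1 library share its depth and sums of 1 class share its cell type, so that these values describe the 44 sums and carry no p. Hif1a correlated with Aldoa at 0.81, Pgk1 at 0.79, Pkm at 0.76, Ldha at 0.75, Pgam1 at 0.74 and Slc2a1 at 0.70. Pfkp, at 0.32, and Slc2a3, at 0.30, followed it least. The highest pair was Pgam1 with Pkm, at 0.85, and the lowest Slc2a3 with Pgk1, at 0.07, which turned to -0.06 with library size alone and to -0.04 without hucMSC-Exo 2.

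Among these 2702 genes, the 5 most like Hif1a over the 44 sums were Prr13 (0.82), Aldoa (0.81), Ero1l (0.79), Pgk1 (0.79) and Eea1 (0.79). Pkm ranked 6, Ldha 7, Pgam1 10, Slc2a1 16 and Bnip3 62, whereas Pfkp ranked 588 and Slc2a3 656. Within libraries the correlation of Hif1a with Aldoa ran from 0.57 to 0.90 and that with Slc2a3 from -0.29 to 0.53.

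**Figure D4:**
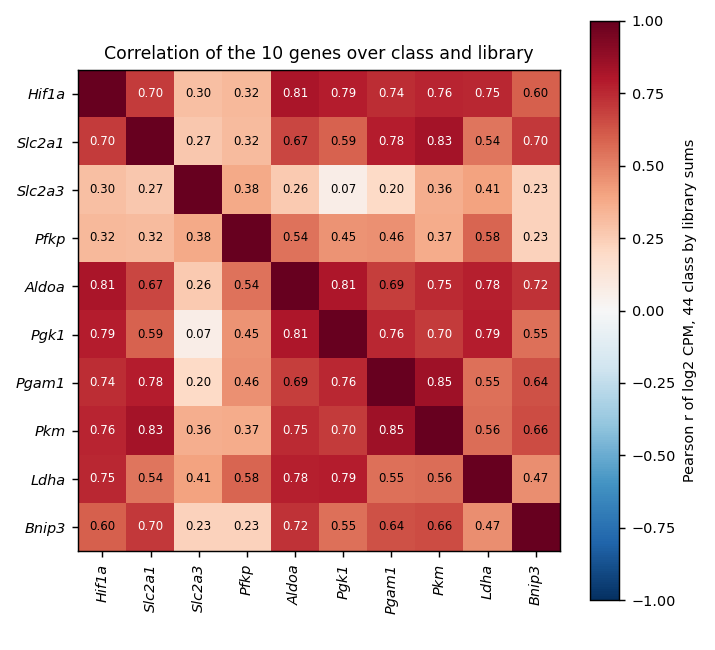
Pearson correlations of log2 CPM between the 10 members (both axes) over 44 class by library sums, coloured by r. Slc2a3 and Pfkp are the palest rows, with correlations to Hif1a of 0.30 and 0.32, and Pgam1 with Pkm is the strongest pair at 0.85.

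Within classes, hucMSC-Exo was compared with Control with 2 mice a group. Groups are those of the titles, and since the letters of the tables group the libraries otherwise, every direction given here is that of the libraries so labelled. None of the members tested, 7 to 10 a class, passed in any of the 11 classes or over all kept cells by edgeR, where 0% of 12117 genes passed over all kept cells and 182 had an unadjusted p under 0.05. By class 43 to 324 genes had an unadjusted p under 0.05. The only gene called was Ccl4 in DETCs (0.0133% of 7515 genes), a chemokine named after its value was seen, with a log2 difference of -4.99 (SE 0.53, adjusted p = 0.00367). DESeq2 called 0 to 2 genes a class.

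Hif1a was fitted higher in hucMSC-Exo in 11 of 11 classes, by 0.05 to 0.65 on the log2 scale, and in no class did it pass (lowest adjusted p = 0.997). Pgk1 was also fitted higher in 11 of 11 classes, by 0.03 to 0.87. The classes come from the same 4 libraries and are not separate replicates, and the share of all genes higher in every class was not counted. The Hif1a difference over all kept cells was 0.47 (SE 0.52). Without Control 1, the library lowest for Hif1a in every class, it was -0.12. In neutrophils, where Control 1 was at 181 CPM, the remaining Control library at 647 CPM lay above both hucMSC-Exo libraries.

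More members separated by group in IL-17 γδ T cells than in any other class, which is why they are described. There Slc2a1, Aldoa, Pgk1, Pgam1, Pkm, Ldha and Bnip3, 7 of 10 members, had both hucMSC-Exo values above both Control values, where 13.8% of 5627 genes did. In the 10 other classes 0 to 4 members did, where 8.03% to 17.7% of genes did. Members correlated over the 44 sums, so these 7 are not separate observations. Cycling cells were 5 of 45, 10 of 134, 19 of 137 and 31 of 254 IL-17 γδ T cells, and their part in these values was not tested. Bnip3 was at 13.7, 22.2, 62.4 and 62.9 CPM, from 3, 16, 38 and 88 UMIs, a log2 difference of 1.66 (SE 0.36, unadjusted p = 0.000729 from edgeR's quasi-likelihood test, adjusted p = 1.00). Pgk1 was at 205, 236, 463 and 349 CPM (0.87), Pgam1 at 196, 196, 286 and 343 CPM (0.70) and Ldha at 356, 450, 637 and 636 CPM (0.65). Aldoa was at 483, 693, 870 and 906 CPM (0.59). Hif1a itself overlapped between groups there, at 246, 646, 542 and 488 CPM.

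The calls depended on the Control libraries. Without Control 2, which left Control 1 alone, 5 members passed (Hif1a, Aldoa, Pgk1, Ldha and Bnip3) among 101 genes, and without Control 1 only Bnip3 did, with a difference of 1.52, among 24 genes. In these fits the lone Control sample is assumed to vary like the others. Whether the effect of hucMSC-Exo differed between classes was tested by an interaction over the 11 classes, in which 0 of 7724 genes passed by edgeR and 121 had an unadjusted p under 0.05. Bnip3 had the lowest interaction p of the members (0.0416, adjusted p = 1).

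**Figure D5:**
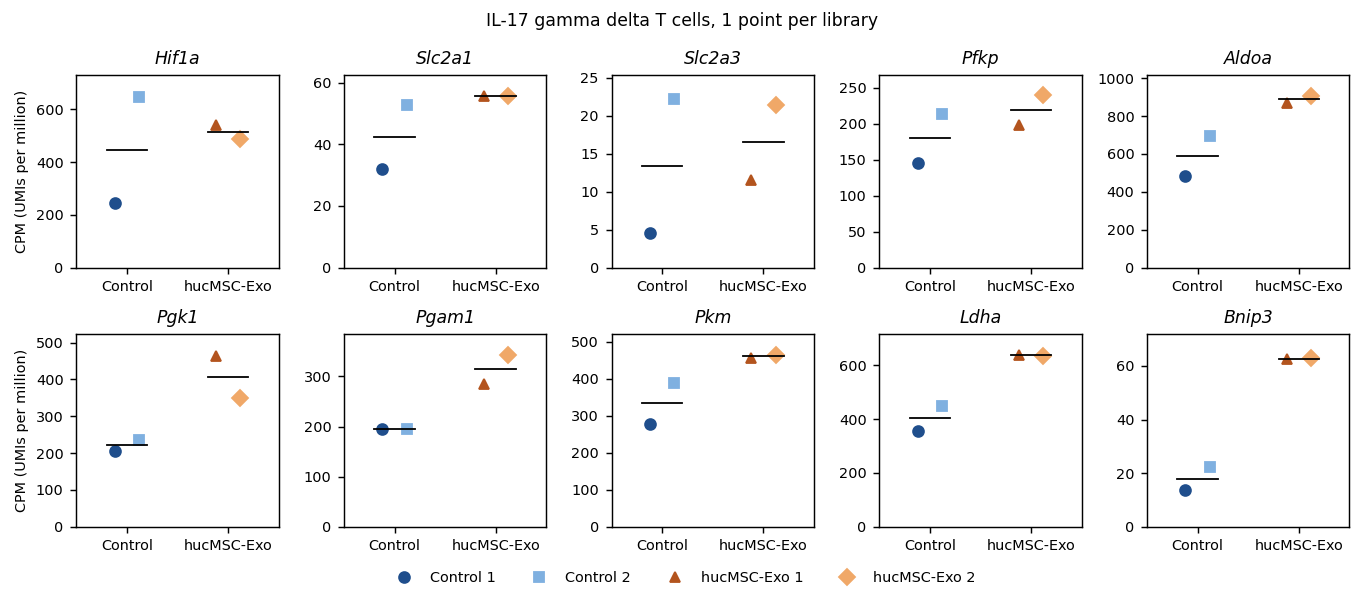
CPM of the 10 members in IL-17 γδ T cells (vertical axes) for Control and hucMSC-Exo (horizontal axis), with 1 point per library and a line at the group mean. Both hucMSC-Exo points lie above both Control points for 7 members, such as Bnip3 at 62.4 and 62.9 against 13.7 and 22.2 CPM, and overlap for Hif1a, Slc2a3 and Pfkp.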

How the data were processed

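The 4 libraries, 1 per mouse, were analysed. The authors deposited whole-number UMI counts per gene and cell from Cell Ranger 6.1.2 with mm10. The study describes more cells per mouse and a separation of Ptprc+ cells by computation, and whether this preceded deposit is not given in the sources used here. Likewise the study's doublet removal (DoubletFinder) is not marked in the tables. Members and gene lists were chosen with earlier results of these data known. Cells with under 200 or over 3000 genes or over 10% mitochondrial counts were left out. A class needed 2 detected markers and the highest marker score, and doublets marked by Scrublet (3 to 20 a library) were kept in the main fit. Counts were summed per class and library, with at least 10 cells, and tested with edgeR 4.0.16 (quasi-likelihood, TMM scaling, library block between classes) in R 4.3.3, with DESeq2 1.42.0 as an alternative. In the treatment fits within a class each group had 2 mice, so their p-values rest on few residual degrees of freedom. Comparisons between classes came from a single fit of the 44 sums, so their SE and p-values use a spread pooled over the 11 classes. Other alternatives were DESeq2 size factors, library size alone, no filter, other gates, no Scrublet doublets, all deposited cells, no block and each library left out. Correlations used TMM-scaled log2 CPM. In each comparison the 4 listed genes with the largest change past the threshold were named, and others are named only as counted members of a list. Scripts were tested on simulated data. CPM intervals and floors cover counting error only.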

Additional observations from a re-analysis of the deposited data

How the results depend on the processing

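Members called were 7 between neutrophils and monocytes, and 3 to 8 over the 10 settings that kept all libraries. They were 4 with library size alone, 4 with no filter and 3 with no block, and 3 to 8 with 1 library left out. Between osteoclast-like and C1q-high macrophages they were 4, 5 with library size alone, 0 with no filter and 1 with a gate of 3 markers. There they were 1 with no block and 0 to 1 with 1 library left out. Osteoclast-like macrophages against monocytes gave 2, 1 with DESeq2, 5 with all deposited cells, 1 with no block and 0 to 3 with 1 library left out. Cycling against non-cycling cells gave 4, 0 with no block, 1 within IL-17 γδ T cells (added after seeing the data) and 3 to 4 with 1 library left out. hucMSC-Exo against Control in IL-17 γδ T cells gave 0, and 0 to 5 with 1 library left out. The causes were not tested.

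Some log2 differences changed sign. For osteoclast-like against C1q-high macrophages, Hif1a (0.04) was -0.17 with no filter, -0.10 with a gate of 3 markers, -1.29 with all deposited cells and -0.22 to 0.20 with 1 library left out, Slc2a3 (0.60) was -0.22 with the gate of 3, and Bnip3 (0.14) was -0.033 with no filter, -0.61 with all deposited cells and -0.26 to 0.55 with 1 library left out. Against monocytes, Pfkp (-0.05) was 0.00998 with DESeq2 size factors, 0.030 with library size alone and -0.20 to 0.11 with 1 library left out, Aldoa (0.21) was -0.0082 to 0.26 with 1 library left out, Ldha (-0.20) was 0.15 with all deposited cells, and Pgam1 (0.04) was -0.16 with no filter, -0.12 with the gate of 3, -0.17 with all deposited cells and -0.077 to 0.088 with 1 library left out. Between γδ T-cell classes Bnip3 (0.21) ranged from -0.24 to 0.52 with 1 library left out. Between myeloid and lymphoid classes Slc2a3 (-1.13) was 0.28 with a minimum of 20 cells, Pfkp (0.13) was -0.14 with library size alone and -0.041 with that minimum, and Aldoa (0.20) was -0.059 with library size alone. In interferon-responding neutrophils Pgk1 (0.04) was -0.15 with no filter, -0.010 with the gate of 3, -0.028 without Scrublet doublets and -0.080 to 0.11 with 1 library left out, Pgam1 (0.09) was -0.091 with no filter, -0.12 with a minimum of 20 cells and -0.12 to 0.27, and Pkm (0.03) was -0.17 with no filter and -0.047 to 0.10. In cycling cells Hif1a (0.05) was -0.053 with no filter and -0.040 to 0.11 with 1 library left out, Slc2a3 (0.18) ranged from -0.061 to 0.34, Pfkp (0.01) was -0.015 with library size alone, -0.10 with no filter, -0.41 within IL-17 γδ T cells and -0.12 to 0.070, Aldoa (-0.07) was 0.042 with all deposited cells, and Pgam1 (0.48) was -0.053 within IL-17 γδ T cells.

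For hucMSC-Exo against Control, the Hif1a difference with 1 library left out ranged from -0.12 to 1.49 in all kept cells, -0.21 to 1.05 in C1q-high macrophages, -0.31 to 1.13 in IL-17 γδ T cells, -0.24 to 0.46 in NK cells, -0.32 to 0.87 in αβ T cells, -0.11 to 1.59 in monocytes, -0.048 to 2.16 in neutrophils and -0.28 to 0.70 in the class gated as plasmacytoid dendritic cells. In NK cells it was 0.05, -0.071 with no filter and -0.045 with all deposited cells. Slc2a3 in IL-17 γδ T cells ranged from -0.51 to 2.00. Libraries with the same number did not deviate together (r from -0.228 to 0.188), and with the replicate block 0 members were called, with 0 to 12 genes called a class. Crossed pairing, added after seeing the data where r was under -0.1, called 25 genes in C1q-high macrophages, 12 in monocytes, 1 in osteoclast-like macrophages and 0 members. With 2 mice a group and Control 1 low for Hif1a, a difference between treatments of the size of the spread between libraries could not be detected. Of 225 correlations recomputed, 27 moved by more than their standard error and 2, both of Slc2a3 with Pgk1, changed sign.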
